A study of Mus musculus with 2 samples.

Results

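The genes described here encode the enzymes that build cholesterol and long-chain fatty acids, together with the proteins that set how much of those enzymes a cell makes. They were taken by symbol, from a list chosen with earlier results of these data known. In it 28 symbols were listed, and all 28 were found among the 32285 genes of both matrices. By role they fall into 7 genes of the mevalonate steps, 11 genes of the sterol steps, 5 regulators or sterol carriers, and 5 genes of fatty acid synthesis. The cells were mouse PLZF/RARA transformed progenitors from leukemic bone marrow. PLZF/RARA is a fusion of the zinc finger protein PLZF with retinoic acid receptor alpha that drives a form of acute promyelocytic leukemia. Cells with the surface pattern of late promyelocytes, positive for Gr1, c-Kit, CD45.2 and Fcγ receptor and lacking CD34, were sorted and profiled by droplet single-cell RNA sequencing. One library came from mice given retinoic acid (0.8 to 1 mg, injected into the peritoneum) over 7 days, and the other from mice given its vehicle, corn oil with 10% DMSO. Per the labels, cells of both libraries carried the fusion. Cohorts held between 3 and 5 mice, and the labels give neither the number of mice behind each library nor the promoter that drives the fusion.

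Each group held 1 library, so no test was made and every difference below has no replicate check. After filtering, 5476 vehicle cells held 99107718 UMIs (unique molecular identifiers, each marking 1 captured RNA molecule) and 7140 retinoic acid cells held 110088247. Median depth was 16749.5 and 14604 UMIs per cell, and 11 barcodes occurred in both libraries. Levels are a gene's UMIs per 1000000 UMIs of a library (CPM), with exact 95% Poisson intervals, and ratios are log2 of retinoic acid over vehicle with exact 95% binomial intervals. These intervals cover counting error only. Because the libraries read 3′ ends and no level was divided by transcript length, levels are compared between libraries or cells and not ranked between genes. The sorted identity was checked against 8 promyelocyte markers, all detected in both libraries, which summed to 13075 CPM under vehicle and 23206 CPM under retinoic acid. These markers did not move together. Mpo went from 311 to 0.50 CPM, and Ctsg, Ly6c2, Prss57 and Kit were also lower after retinoic acid. Elane went from 62.8 to 7663 CPM, and Prtn3 and Ms4a3 were also higher. The sum therefore does not show one promyelocyte identity in both libraries. Markers of other cells differed too. The 8 maturing neutrophil markers summed to 1623 and 61778 CPM. The 7 mast cell and basophil markers summed to 803 and 68.1 CPM, with Fcer1a at 0 in both libraries and Prss34 at 0 after retinoic acid. The 6 eosinophil markers summed to 122 and 33.2 CPM, with Ear2 at 0 in the vehicle library and Ear1 at 0 in the other. Monocyte, erythroid, T cell, B cell and megakaryocyte lists each summed to at most 29.1 CPM. The part these cells take in the ratios was not tested, except where values within cell groups are given.

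Cells build cholesterol from acetyl-CoA. The mevalonate steps lead to farnesyl diphosphate, which also feeds the lipid anchors of Ras-like proteins, ubiquinone and dolichol. The sterol steps then close farnesyl units into lanosterol and trim it to cholesterol. When membrane sterol is low, SCAP carries the membrane-bound precursors of the SREBP transcription factors (genes Srebf1 and Srebf2) from the endoplasmic reticulum to the Golgi for cleavage, and the released factors turn on these genes. INSIG1 holds SCAP back when sterol is plentiful and is itself an SREBP target. SREBP proteins bind sterol regulatory elements in promoters, usually beside sites for NF-Y (the CCAAT box) and Sp1 (the GC box). Dividing cells need both sterol and fatty acid for new membrane.

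These promoter features are shown for 3 of the genes that followed the other genes of the pathway from cell to cell in the values below. They are Hmgcs1, the HMG-CoA synthase, Insig1, and Nsdhl, a dehydrogenase that removes methyl groups from sterol intermediates. The 3 were picked by name and not by rank in those values. The sequences are RefSeq's (GRCm38.p6), 5′ to 3′ on the gene's strand, and stop at the base before the most upstream annotated start. Capitals mark 3 motifs searched on both strands: TCACNCCAC (a sterol regulatory element), CCAAT and GGGCGG. Overlaps between motifs were allowed.

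Hmgcs1: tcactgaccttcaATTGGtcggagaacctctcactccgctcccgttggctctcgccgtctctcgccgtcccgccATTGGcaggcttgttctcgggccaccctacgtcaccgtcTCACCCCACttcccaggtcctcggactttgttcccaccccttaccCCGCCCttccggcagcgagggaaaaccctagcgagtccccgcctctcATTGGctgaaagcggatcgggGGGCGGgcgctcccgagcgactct
Insig1: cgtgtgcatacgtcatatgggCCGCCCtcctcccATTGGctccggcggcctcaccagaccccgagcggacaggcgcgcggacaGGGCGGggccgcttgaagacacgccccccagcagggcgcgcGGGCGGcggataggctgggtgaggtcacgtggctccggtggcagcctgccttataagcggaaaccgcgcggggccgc
Nsdhl: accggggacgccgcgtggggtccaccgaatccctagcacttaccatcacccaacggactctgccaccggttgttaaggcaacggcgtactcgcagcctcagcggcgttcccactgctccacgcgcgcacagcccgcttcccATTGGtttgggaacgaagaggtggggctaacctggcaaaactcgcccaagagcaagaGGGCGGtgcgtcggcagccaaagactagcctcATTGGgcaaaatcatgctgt

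The Hmgcs1 stretch lies at chr13:119690101-119690350 on the plus strand and holds 1 TCACNCCAC match, 3 CCAAT and 2 GGGCGG matches. The TCACNCCAC match begins 137 bases before the start. The Insig1 stretch (chr5:28071162-28071362, plus strand) holds 1 CCAAT and 3 GGGCGG matches, and the Nsdhl stretch (chrX:72918271-72918520, plus strand) holds 2 CCAAT matches and 1 GGGCGG match. RefSeq windows of 300 bases, from 250 before to 50 after the start, were given for 23 of the 28 genes. Where a gene had several windows, a match in any of them was counted. TCACNCCAC occurred in 1 of the 23, Hmgcs1, against 1.44% of 27025 genes with a window. CCAAT occurred in 19 of 23 against 41.1% of all genes, and in 42.9% of the 4456 genes with at least 20 CPM in these cells. GGGCGG also occurred in 19 of 23, against 38.2% of all genes and 71.2% of those with at least 20 CPM. Cyp51 and Idi1, which followed the other genes most closely in the vehicle library, are not shown. Their stretches before the start, of 201 and 145 bases, held no TCACNCCAC or CCAAT match. GGGCGG matched 1 time in the Cyp51 stretch and not in that of Idi1. Their 300-base windows held both CCAAT and GGGCGG. A link between motifs and following the other genes was not tested. These are letter matches and not binding sites, and a window without a match says nothing of the factor.

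The pathway as a whole was at nearly the same level in both libraries, while the fatty acid genes were lower after retinoic acid. The 28 genes summed to 1305 CPM (1298 to 1312) under vehicle and 1263 CPM (1257 to 1270) under retinoic acid, which is 0.131% and 0.126% of all UMIs. The log2 ratio of -0.047 (-0.058 to -0.036) became 0.033 with TMM scaling and 0.061 with granule genes left out of the total, so its sign is not fixed. Those 18 genes, of granule proteins plus S100a8 and S100a9, took 1.03% of vehicle UMIs and 8.17% of retinoic acid UMIs, and leaving them out raises every ratio by 0.11 on the log2 scale. Ratios below are on the full total unless stated. By role, the mevalonate steps went from 532 to 572 CPM (log2 ratio 0.10), the sterol steps from 329 to 327 CPM (-0.011), and the regulators and carrier from 187 to 176 CPM (-0.085). Fatty acid synthesis went from 256 (253 to 259) to 188 CPM (185 to 191), and its log2 ratio was -0.45 (-0.47 to -0.42). That sum stayed lower with TMM scaling (-0.37) and without granule genes (-0.34), whereas both scalings turned the sterol steps positive (0.069 and 0.097).

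Of the 28 genes, 21 reached 20 CPM in at least 1 library. None of these 21 was 1.5-fold higher or 1.5-fold lower after retinoic acid, where 8.15% of the 5548 genes at that level were higher and 10.1% were lower by as much. Over genes with at least 10 counts, the median log2 ratio was -0.090 for the 28 genes and -0.083 for all 14561, and 10 of the 28 were higher and 18 lower. All 5 fatty acid genes were among the lower ones. With TMM scaling 3 genes changed sign (Mvd, Cyp51 and Stard4), and without granule genes Hmgcs1, Pmvk and Nsdhl did so as well. The single large difference was in a gene under that level, Elovl6.

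**Figure D1:**
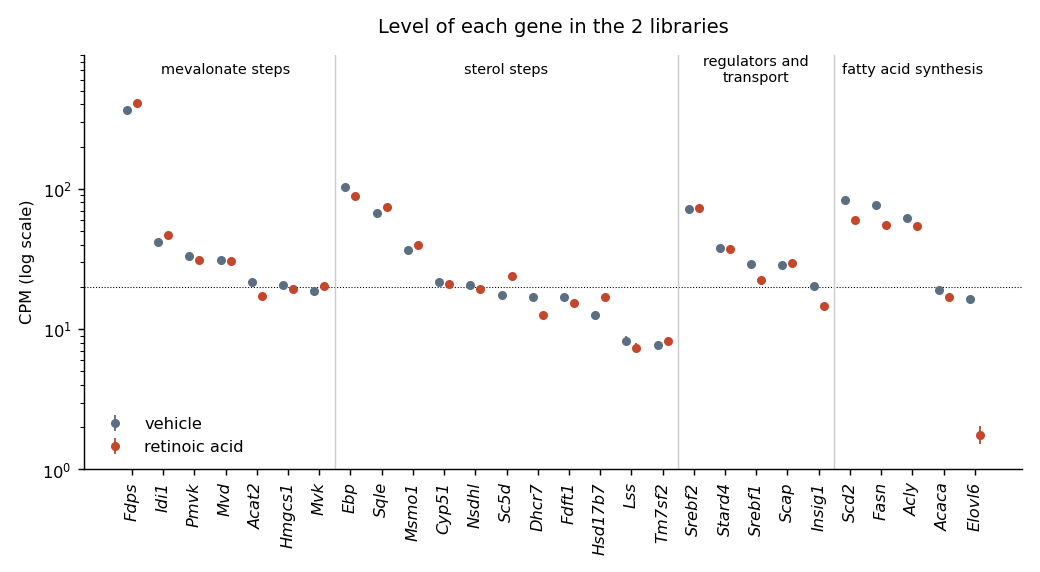
CPM of each of the 28 genes (log axis) in the vehicle and retinoic acid libraries, grouped by role, with exact 95% Poisson intervals and a dotted line at 20 CPM. Points of the 2 libraries lie close together for most genes, while Elovl6 is at 16.4 CPM under vehicle and 1.76 CPM under retinoic acid.

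In the mevalonate steps, Fdps, the farnesyl diphosphate synthase, held the most UMIs of any of the 28 genes. It was at 365 CPM (361 to 369) under vehicle and 407 CPM (403 to 410) under retinoic acid, a log2 ratio of 0.16. The other 27 genes together held 72.0% and 67.8% of the summed UMIs, so sums over the set lean on this gene. Without it the log2 ratio of the sum was -0.13 and that of the mevalonate steps was -0.015. Idi1, which isomerises the isoprenoid unit, was at 42.0 and 46.8 CPM (log2 ratio 0.15). Mvk, the mevalonate kinase, was at 18.5 and 20.4 CPM (0.14). Acat2, the thiolase that joins acetyl-CoA units, was the one gene of the 7 that was clearly lower, at 21.8 and 17.2 CPM (-0.34, -0.43 to -0.25). Its counts are uncertain to the extent that reads were split with its close copy Acat3. Pmvk and Mvd, the next kinase and decarboxylase, and Hmgcs1 lay between -0.092 and -0.023, and all 3 turned positive when granule genes were left out of the total.

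Genes of the sterol steps differed in both directions. Sc5d, a sterol desaturase, was higher after retinoic acid at 24.1 against 17.4 CPM (log2 ratio 0.47, 0.38 to 0.56), and Hsd17b7, a keto-sterol reductase, was higher at 16.9 against 12.6 CPM (0.42, 0.32 to 0.53). Dhcr7, the reductase of the last step to cholesterol, was lower at 12.6 against 16.9 CPM (-0.43, -0.53 to -0.33), and Ebp, a sterol isomerase, was lower at 88.3 against 103 CPM (-0.23, -0.27 to -0.19). These 4 kept their direction under the other scalings. Sqle, the squalene epoxidase and a control point of the pathway, was at 67.4 CPM under vehicle and 73.9 CPM under retinoic acid (0.13). Msmo1, a methylsterol oxidase, was at 36.4 and 39.8 CPM (0.13). Cyp51, the lanosterol demethylase, was at 21.6 and 20.9 CPM (-0.051), and Nsdhl was at 20.7 and 19.4 CPM (-0.095). Fdft1 (squalene synthase), Lss (lanosterol synthase) and Tm7sf2 (a sterol reductase) stayed under 20 CPM in both libraries, with log2 ratios of -0.13, -0.17 and 0.10.

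Among the regulators, the 2 SREBP genes differed from each other. Srebf2, whose product acts mainly on cholesterol genes, was at 71.5 CPM under vehicle and 72.4 CPM under retinoic acid (log2 ratio 0.018, -0.029 to 0.064). Srebf1, whose product acts mainly on fatty acid genes, was at 29.0 and 22.5 CPM (-0.37, -0.44 to -0.29). Insig1 was at 20.4 and 14.6 CPM (-0.49, -0.59 to -0.39). Scap was at 28.5 and 29.6 CPM (0.053), and Stard4, a carrier that moves cholesterol between membranes, was at 37.7 and 37.4 CPM (-0.010). The lower values of Srebf1 and Insig1 kept their direction under every scaling run, and the ratios of the other 3 genes lay between -0.010 and 0.053.

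Fatty acid synthesis was the one role in which every gene was lower after retinoic acid, also under the other scalings. Elovl6, the elongase that lengthens palmitate to stearate, was at 16.4 CPM (1630 UMIs) under vehicle and 1.76 CPM (194 UMIs) under retinoic acid. It was 9.33-fold lower, a log2 ratio of -3.22 (-3.44 to -3.01). Fasn, the fatty acid synthase, was at 76.6 and 55.4 CPM (-0.47). Scd2, a stearoyl-CoA desaturase, was at 82.9 and 59.8 CPM (-0.47). Acly, which makes cytosolic acetyl-CoA from citrate, was at 61.4 and 53.9 CPM (-0.19), and Acaca, the acetyl-CoA carboxylase, was at 18.9 and 17.0 CPM (-0.15). The sum without Elovl6 gave -0.36 and without Scd2 the direction was the same.

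**Figure D2:**
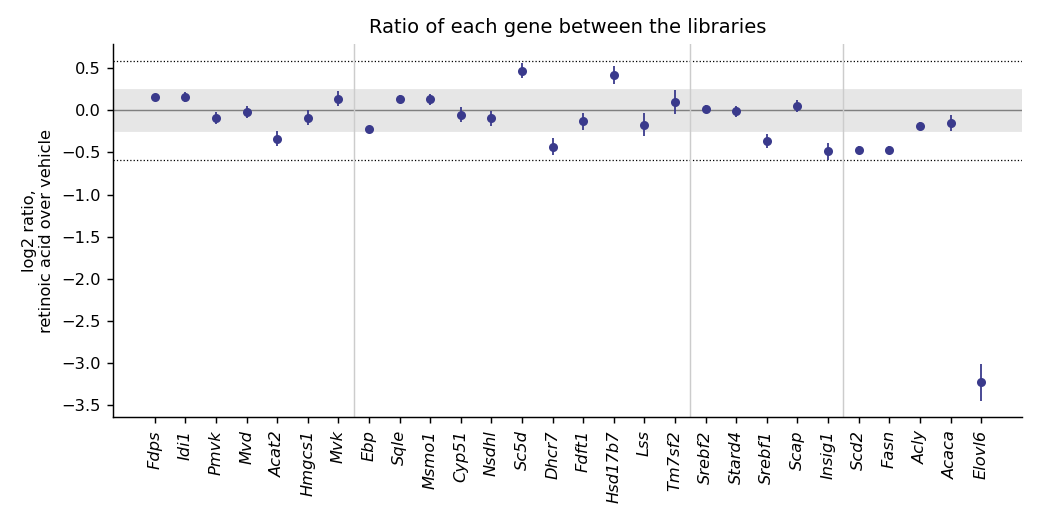
Log2 ratio of retinoic acid over vehicle for each gene with its exact 95% binomial interval, grouped by role. The grey band holds the interquartile range of all genes with at least 20 CPM (-0.25 to 0.24), dotted lines mark 1.5-fold, and Elovl6 at -3.22 is the only gene outside them.

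Other genes of lipid metabolism were counted from lists chosen by function. Of all 5548 genes with at least 20 CPM, 8.15% were 1.5-fold higher and 10.1% were 1.5-fold lower after retinoic acid. Counts in lists this short cannot be told apart from those shares. Fads2, a desaturase of polyunsaturated fatty acids, was at 40.2 CPM under vehicle and 15.4 CPM under retinoic acid (log2 ratio -1.38). Of 11 genes of sterol efflux and storage, 5 reached 20 CPM and 1 was 1.5-fold lower, the lysosomal cholesterol carrier Npc2, at 258 and 156 CPM (-0.72). In the isoprenoid branch (4 of 11 genes at that level), SREBP processing (3 of 5) and fatty acid oxidation (13 of 13), none passed 1.5-fold either way. The medians over genes with at least 10 counts were -0.35, 0.014, -0.30 and 0.039 for these 4 lists in this order, beside -0.083 for all genes.

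Per cell, the share of UMIs in the 28 genes was small and spread more widely in the vehicle library. To compare cells at one depth, each was thinned at random to 5000 UMIs. That kept 5282 cells under vehicle and 6659 under retinoic acid, and 194 and 481 cells were too shallow. One UMI is then 0.02% of a cell. The median share was 0.10% (quartiles 0.06% and 0.16%) in vehicle cells and 0.12% (0.08% and 0.16%) in retinoic acid cells. The gap equals 1 UMI and was 0 with thinning to 3000 UMIs or without Fdps, so no change is read from it. Unthinned medians were 0.108% and 0.113%. The variance of the summed UMIs per cell was 2.64 times the mean in vehicle cells and 2.06 times in retinoic acid cells. A share above 0.28%, the 95th percentile of vehicle cells, occurred in 4.41% of vehicle cells (exact binomial interval 3.87% to 5.00%) and 2.34% of retinoic acid cells (1.99% to 2.74%). Single genes of the set with at least 20 CPM had a median variance over mean of 1.08 (19 genes, vehicle) and 1.04 (17 genes, retinoic acid). The median over all such genes was 1.04 in both libraries. A gene with few UMIs per cell stays near 1 on this measure even where its level differs between cells. Cyp51, for example, averaged 0.0975 UMIs per vehicle cell and gave 1.13. Values near 1 therefore do not show that a gene varied little. Fdps stood furthest above 1, at 2.07 and 1.80, and also held the most UMIs. Other genes, among them Scd2 (1.20 in both libraries) and Idi1 (1.19 and 1.20), also passed the upper quartile of all such genes, 1.09 in both libraries.

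In both libraries the summed level was higher in cells called cycling, where most other genes were higher too. Phases were called from 43 S phase and 54 G2/M genes. Among vehicle cells 46.9% were in G1, 21.7% in S and 31.4% in G2/M, and among retinoic acid cells 18.1%, 42.6% and 39.3%. In the vehicle library the 28 genes summed to 1039 CPM in G1, 1460 in S and 1384 in G2/M cells, a log2 ratio of cycling over G1 of 0.45 (0.41 to 0.48). After retinoic acid they summed to 1026, 1276 and 1262 CPM, a ratio of 0.31 (0.27 to 0.35). In that library G1 cells also had the highest share of secondary granule genes, with a median of 5.16% against 1.82% in S and 1.60% in G2/M, and the ratio was 0.16 with granule genes left out of the total. Vehicle cells had medians of 0.06% to 0.08% in all phases, and there the ratio stayed at 0.45. Over genes with at least 20 CPM, 66.1% of all genes were higher in cycling vehicle cells and 72.1% in cycling retinoic acid cells. The median ratio at that level was 0.18 for all genes and 0.45 for 20 genes of the set under vehicle. After retinoic acid it was 0.25 for all genes and 0.35 for 16 genes of the set.

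The genes that differed most between phases came from the mevalonate steps, the sterol steps and the regulators. In vehicle cells, 8 of the 20 genes with at least 20 CPM were 1.5-fold higher in cycling cells, where 19.4% of all such genes were. These were Acat2, Pmvk, Idi1, Sqle, Cyp51, Nsdhl, Insig1 and Stard4. After retinoic acid 4 of 16 were (Idi1, Sqle, Cyp51 and Stard4), against 23.0% of all genes, a share close to the background. Idi1 was at 25.8 CPM in G1, 55.3 in S and 48.7 in G2/M vehicle cells, and at 25.5, 45.9 and 44.8 CPM after retinoic acid. Sqle was at 45.7, 76.3 and 70.5 CPM in the vehicle and 34.2, 72.7 and 77.3 CPM after retinoic acid. G1 cells were the lowest of the 3 phases for both genes in both libraries. Mvd did not follow this pattern, with 31.2, 36.5 and 25.8 CPM in the vehicle and 35.3, 28.5 and 29.9 CPM after retinoic acid. Fdps was at 289, 440 and 371 CPM in the vehicle and 376, 452 and 370 CPM after retinoic acid, so that it stood highest in S cells of both. No gene of the set was 1.5-fold lower in cycling cells of either library, where 5.73% and 5.82% of all genes were.

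**Figure D3:**
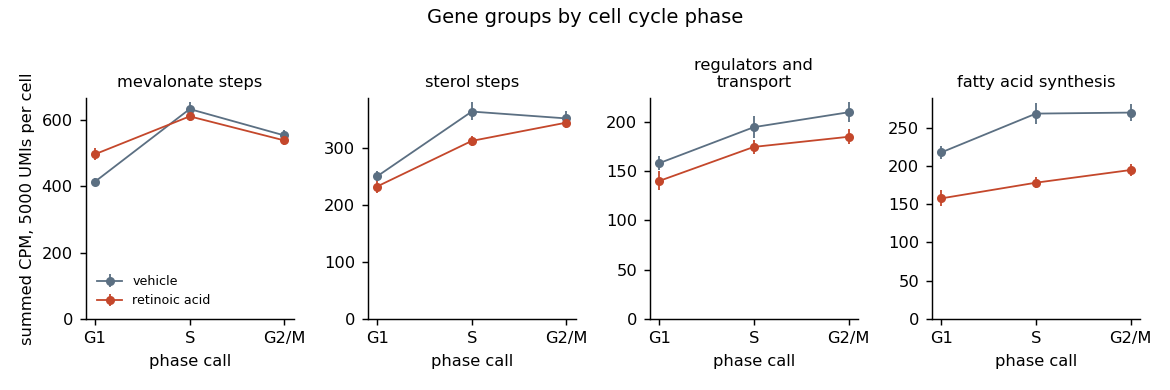
Summed CPM of each role group in G1, S and G2/M cells (each cell thinned to 5000 UMIs) of the vehicle and retinoic acid libraries, with exact 95% Poisson intervals. The fatty acid genes lie lower after retinoic acid in all 3 phases, for example 178 against 268 CPM in S cells, and on this full total every group is lowest in G1.

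The lower fatty acid level was present within each phase. Fatty acid synthesis summed to 217 CPM in vehicle and 157 CPM in retinoic acid G1 cells, to 268 and 178 CPM in S cells, and to 270 and 195 CPM in G2/M cells, with log2 ratios of -0.47, -0.59 and -0.47. Elovl6 was at 11.6, 18.3 and 18.2 CPM in G1, S and G2/M vehicle cells and at 1.00, 1.41 and 1.37 CPM after retinoic acid, the latter from 6, 20 and 18 UMIs. All 28 genes together gave -0.02, -0.19 and -0.13 in the 3 phases. In S cells 4 of 21 genes were 1.5-fold lower after retinoic acid, Nsdhl, Srebf1, Insig1 and Scd2, against 11.7% of all genes, and in G2/M cells 1 of 21, Insig1, against 9.97%. In G1 none of 14 was, against 19.5%. With both libraries averaged at the phase shares of vehicle cells, the log2 ratio of the sum was -0.10, and 0.066 with granule genes left out. At those shares fatty acid synthesis gave -0.50, and -0.33 with granule genes left out.

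Among retinoic acid cells, those richest in granule transcripts held lower levels of the sterol and fatty acid genes, but not of Fdps. Cells of each library were put in 4 bins of near-equal size by their share of 10 secondary and tertiary granule genes (among them Camp, Ltf and Lcn2, products of maturing neutrophils). After retinoic acid the median granule share of the 4 bins was 0.38%, 1.16%, 3.50% and 11.98%. The 28 genes summed to 1326, 1263, 1285 and 1027 CPM in order of rising granule share, so that only the highest bin stood apart. Its log2 ratio to the lowest was -0.37 (-0.41 to -0.33). The granule genes themselves take room in these cells: with the S100 genes and primary granule genes they made up 3.16% of UMIs in the lowest and 23.0% in the highest bin, which lowers every other gene by 0.33. With them left out the ratio was -0.037. The highest bin also differed in depth, with a median of 10765 UMIs per cell against 18015 in the lowest, and in phase, with 34.0% against 12.6% G1 cells. With bins averaged at the phase shares of the library the ratio was -0.30. That value is on the full total, so it still holds the lowering by granule genes.

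The groups behind this sum differed. Sterol steps went from 363 CPM in the lowest to 328, 318 and 232 CPM in the highest bin, a log2 ratio of -0.65 (-0.73 to -0.57). Fatty acid synthesis went from 215 to 194, 170 and 143 CPM (-0.59, -0.69 to -0.48). With granule genes left out both remained lower in the highest bin, at -0.32 and -0.25. The mevalonate steps, led by Fdps, were at 563, 561, 616 and 508 CPM (-0.15), which turned to 0.18 with granule genes left out. Of the 20 genes with at least 20 CPM, 12 were 1.5-fold lower in the highest bin and none higher, where 36.5% of all genes were lower and 8.33% higher. The median was -0.68 for the 20 genes and -0.41 for all genes. Within S cells 6 of 18 genes were 1.5-fold lower in the highest bin, against 29.9% of all genes, a share close to the background. In G1 cells 11 of 16 were, against 50.1%, and in G2/M cells 12 of 21, against 20.9%.

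Single genes ranged widely across these bins. Acat2 was at 22.7, 17.2, 17.8 and 6.7 CPM in bins 1 to 4 (log2 ratio -1.75, -2.21 to -1.32). Idi1 was at 60.1, 44.3, 41.7 and 21.0 CPM (-1.51), and Cyp51 at 26.1, 21.1, 21.7 and 10.2 CPM (-1.35). For these 3 the step from the third to the highest bin was the largest. Fdps, in contrast, was at 366, 399, 458 and 401 CPM (0.13, 0.06 to 0.20), and Srebf2 at 66.7, 70.9, 79.9 and 70.6 CPM (0.08). Hsd17b7 was at 14.9, 16.3, 18.1 and 19.4 CPM (0.38), the one gene of the sterol steps that was higher in granule-rich cells. Scd2 was at 70.9, 59.5, 54.8 and 41.0 CPM (-0.79) and Fasn at 62.8, 59.7, 52.6 and 46.0 CPM (-0.45), lower in each bin than in the one before.

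In the vehicle library granule share spanned a far narrower range, with bin medians of 0.02% to 0.20%. The lowest median is 1 UMI per cell at this depth, and cells with equal counts were ordered at random. The bin of a vehicle cell therefore rests in part on counting error. The sum was at 1233 CPM in the lowest and 1232 CPM in the highest bin (log2 ratio -0.00033, counting interval -0.04 to 0.04). Its parts differed in direction. The sterol steps were at 319 and 280 CPM (-0.19, -0.28 to -0.10) and fatty acid synthesis at 262 and 238 CPM (-0.14, -0.24 to -0.04), lower in the highest bin as they were after retinoic acid, while the mevalonate steps were at 475 and 540 CPM (0.18, 0.12 to 0.25). Of 18 genes 1 was 1.5-fold lower in the highest bin, Insig1 (-0.70), against 1.27% of all genes. When cells were ranked instead by 6 primary granule genes, the products of promyelocytes, the 28 genes were higher in the highest bin, with log2 ratios of 0.40 under vehicle and 0.16 under retinoic acid. Most genes were higher there too. Over genes with at least 20 CPM the median was 0.16 for all genes and 0.45 for the set under vehicle. Under retinoic acid it was 0.27 and 0.35, so the summed ratio of 0.16 lay under the median of all genes. The relation of the summed level to granule content, on the full total, therefore depended on which granule genes ranked the cells. The primary granule bins were not averaged at equal phase shares, and granule genes were not left out of their total. The cause of this contrast was not tested. Retinoic acid cells of the lowest secondary granule bin were also set against all vehicle cells. There the 28 genes stood at 1326 against 1239 CPM (0.10) and the sterol steps at 363 against 307 CPM (0.24), while fatty acid synthesis was lower at 215 against 245 CPM (-0.19). Elovl6 was at 2.16 against 15.1 CPM in this comparison (-2.81, -3.58 to -2.13), and Idi1 was higher at 60.1 against 39.4 CPM (0.61). Idi1 was the only gene of the 20 with at least 20 CPM that was 1.5-fold higher, against 9.62% of all genes. The median at that level was 0.20 for the 20 genes and 0.13 for all genes, so the summed ratio of 0.10 lay under the median of all genes.

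**Figure D4:**
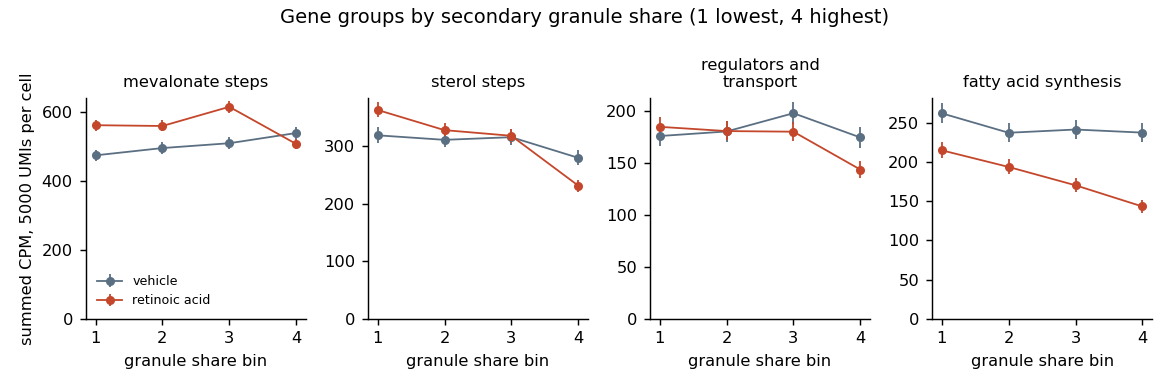
Summed CPM of each role group in bins of cells ranked by secondary granule share (1 lowest, 4 highest), with exact 95% Poisson intervals, on the full total. After retinoic acid the sterol steps go from 363 to 232 CPM and fatty acid synthesis from 215 to 143 CPM, while the mevalonate steps, 563 and 508 CPM, turn higher in the highest bin when granule genes are left out of the total.

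The vehicle library held cells with the mast and basophil gene Cpa3 beside cells with Mpo, the promyelocyte peroxidase. Cells with a UMI of Cpa3 only, of Mpo only, of both and of neither held 1162, 1304, 1210 and 1347 CPM of the 28 genes, and 61.7%, 21.2%, 42.0% and 34.9% of them were in G1. Elovl6 was at 14.5, 18.9, 15.4 and 14.6 CPM in the same 4 groups. The exact 95% Poisson intervals of these 4 Elovl6 levels overlapped. A group rests on single UMIs, and the part of these cells in the difference between the libraries was not tested.

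Genes of the pathway were high in the same cells. For each gene, cells were ranked by the summed share of the other 27, and the gene's level in the highest of 4 bins was compared with that in the lowest, so that its own UMIs played no part in the ranking. In the vehicle library 23 of 28 genes were 1.5-fold higher in the highest bin and none was lower. Of the 5385 other genes with at least 20 CPM, 5.2% were higher and 1.6% lower. After retinoic acid 19 of 28 were higher and none lower, against 1.54% and 1.98% of 5252 other genes. The 28 genes were counted here without the limit of 20 CPM. With it, 20 of 25 were higher in the vehicle library and 15 of 23 after retinoic acid. The median log2 ratio was 1.26 for the 28 genes and 0.10 for other genes in the vehicle library, and 0.89 and 0.13 after retinoic acid. These are descriptions over cells of 1 library each, which share that library's preparation.

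Genes at the top of this order came from several roles. Cyp51 went from 7.87 to 37.9 CPM in vehicle cells (log2 ratio 2.27, 1.83 to 2.73) and from 9.01 to 34.4 CPM in retinoic acid cells (1.93, 1.56 to 2.32). Idi1 went from 17.0 to 75.9 CPM (2.16) and from 25.3 to 69.2 CPM (1.45). Insig1, whose promoter is shown above, went from 9.99 to 36.1 CPM (1.85) and from 6.73 to 23.2 CPM (1.79). Nsdhl gave 1.73 and 1.10, Hmgcs1 1.27 and 1.29, and Sqle 1.78 and 1.30 in the same order of libraries. Genes at the other end were Scap (0.23 and 0.11), Srebf2 (0.36 and 0.40), Acaca (0.40 and 0.31), Ebp (0.50 and 0.19) and Acly (0.56 and 0.53). Elovl6 gave 1.30 in vehicle cells. After retinoic acid its interval, 0.09 to 3.13, was too wide to place it at this depth.

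**Figure D5:**
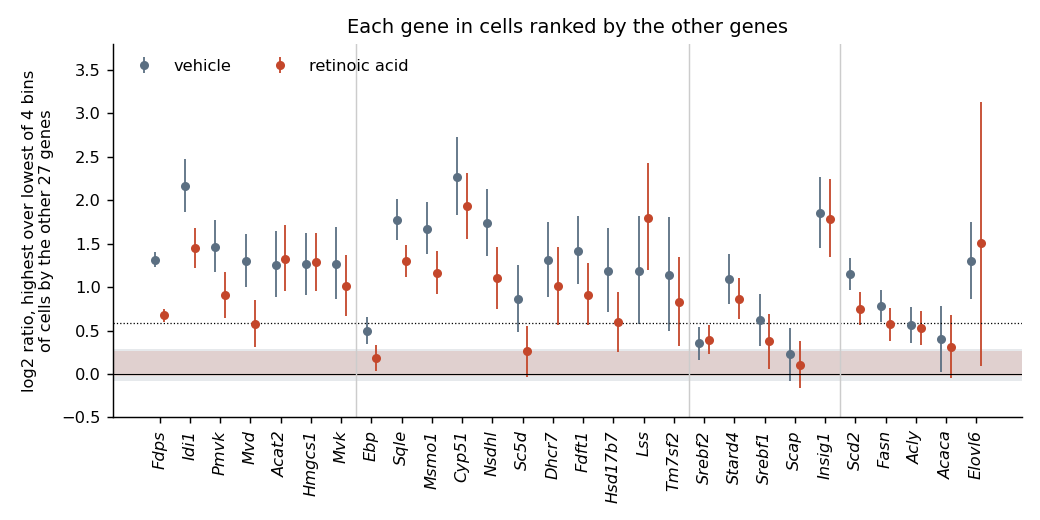
Log2 ratio of each gene's level in the highest over the lowest bin of cells ranked by the other 27 genes, with exact 95% binomial intervals, for both libraries. Shaded bands hold the interquartile range of other genes (-0.08 to 0.29 in the vehicle library) and the dotted line marks 1.5-fold; Cyp51, Idi1 and Insig1 lie highest in the vehicle library, and Scap and Srebf2 near the bands.

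The pattern was also present in cells of 1 phase. In G1, S and G2/M cells alone, 20, 23 and 22 genes were 1.5-fold higher in the vehicle library, against 2.22%, 3.79% and 2.25% of other genes with at least 20 CPM. After retinoic acid the counts were 16, 17 and 18, against 22.6%, 0.998% and 0.994%. The background in retinoic acid G1 cells was thus much higher than in the other phases. Fatty acid genes followed the sterol pathway in part: in cells ranked by the 18 genes of the mevalonate and sterol steps, they went from 199 to 335 CPM in the vehicle library (log2 ratio 0.75) and from 155 to 219 CPM after retinoic acid (0.49). In the same ranking the secondary granule genes differed by -0.01 in the vehicle library and by -0.72 after retinoic acid.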

How the data were processed

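Polyadenylated RNA of sorted cells was profiled with 10x Genomics 3′ chemistry, 1 library per treatment. The deposited matrices hold raw counts of UMIs for every gene in every cell and, per the file headers, come from Cell Ranger 4.0.0; the builds mm10 and GRCm38.p4 stand in the submitters' processing notes. Of 32285 genes, 32158 matched GENCODE M21 by identifier. The matrices held 5786 vehicle and 7416 retinoic acid barcodes; cells with at least 1000 UMIs, 500 genes and at most 10% mitochondrial UMIs were kept (310 and 276 removed). No doublet caller was run; an alternative left out the 5% of cells with the most UMIs. Counts were summed per library and expressed as CPM. Cells were thinned to 5000 UMIs for measures per cell, and phases were called with scanpy 1.11.5 on both libraries together. TMM factors came from edgeR 4.0.16 and raised every log2 ratio by 0.08. Intervals are exact at 95%. Their computation was run on simulated pooled counts drawn from a Poisson law, with 200 of 32285 genes changed between the libraries. There 94.5% of intervals held the true ratio. The simulation had no spread between cells or libraries beyond counting, so it cannot show that the intervals hold for such spread. With 1 library per group, a ratio of 1.5 among genes reaching 20 CPM in one group or the other served as a rule of size, not a test.

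The 28 genes and all lists were chosen with earlier results of these data known. All 28 genes are accounted for; of the other lipid lists, those reaching 20 CPM in one library or both with a ratio of 1.5 or more are named, and some results of one list are not reported here. Alternatives were other scalings, equal weight for every cell, other limits on cells, CPM and depth, other phase and granule rankings, and sums without Fdps. Sequences shown end before the annotated start, so no transcribed base is included.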

Additional observations from a re-analysis of the deposited data

Results flagged for a closer look

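In 3 cases the difference between the highest and the lowest bin of cells by secondary granule share ran in opposite directions in the 2 libraries. The mevalonate steps had a log2 ratio of 0.18 under vehicle and -0.15 under retinoic acid, and the latter turned to 0.18 with granule genes left out of the total. Hsd17b7 had -0.56 in the vehicle and 0.38 after retinoic acid. Scap had 0.34 in the vehicle and -0.77 after retinoic acid. Each rests on 1 library per group, and the bins spanned very different granule shares in the 2 libraries. The vehicle bins rest on few granule UMIs per cell, and the difference between the libraries was not tested.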

How the results depend on the processing

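No paired analysis was possible because only 1 library was made per treatment. Of the alternative values of the main results, 54 stayed within the counting interval or within 1.5 times the count, and 38 moved further. With TMM scaling the log2 ratio was 0.033 for all genes, 0.18 for the mevalonate steps, 0.069 for the sterol steps, -0.0046 for regulators and transport and -0.37 for fatty acid synthesis, and the median over genes was -0.010. With granule genes left out of the total, these were 0.061, 0.21, 0.097, 0.023, -0.34 and 0.018; the gap between median shares per cell was 0.0237 percentage points, the retinoic acid ratios of cycling cells and granule bins were 0.16 and -0.037, and the ratio at vehicle phase shares was 0.066. Equal weight for every cell gave -0.024 for all genes and 0.14 for the mevalonate steps. Without Fdps the ratio was -0.13 for all genes, -0.015 for the mevalonate steps and -0.22 at vehicle phase shares; the gap between median shares was 0, the granule bin ratio was -0.13 in the vehicle and -0.62 after retinoic acid, and the cycling ratio after retinoic acid was 0.40. With a limit of 5 CPM or none, 1 gene was 1.5-fold lower, Elovl6. The gap between median shares was 0 with 3000 UMIs per cell and 0.00438 points without thinning. The cycling ratio was 0.40 in the vehicle and 0.25 after retinoic acid at full depth, 0.51 and 0.22 between outer bins by cycle gene share, and 0.37 after retinoic acid at 3000 UMIs. Ranking by primary granule genes gave 0.40 in the vehicle and 0.16 after retinoic acid. Secondary granule bins averaged at the library's phase shares gave -0.30 after retinoic acid. These values are on the full total. Alternatives chosen after seeing the data were fatty acid synthesis without Elovl6 (-0.36) or without Scd2, and the ranking by other genes within 1 phase, at 3000 UMIs or without Fdps. Where a new scaling or a smaller set of genes was not the construction itself, the cause was not tested. Genes under 20 CPM, Elovl6 after retinoic acid above all, are limited by counts.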
